A study of Mus musculus with 23 samples.

Results

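Butyrate enters and feeds the cells that line the colon through a short chain of proteins, and the genes for 9 of them are described here in the colonic epithelium of mice on a low-fat diet, a high-fat diet or a high-fat diet followed by a low-fat diet. They were chosen by name. Slc5a8, Slc16a1 and Slc16a3 encode transporters, Ffar2, Ffar3 and Hcar2 encode receptors, Acsm3 encodes an enzyme that activates fatty acids, and Bdh1 and Acat1 encode enzymes of ketone bodies. All 9 were found among the 24917 gene loci of the count table. Hcar2 stands there under an older symbol, Niacr1, and was matched by its gene identifier. The members were compared between diets because colonic butyrate is a main fuel of these cells and the study asked what obesity and later weight loss do to their gene expression.

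Male C57BL/6 mice were fed for 43 weeks from 6 weeks of age. LF mice received a diet with 10% fat, HF mice a diet with 60% fat, and HF-LF mice the 60% fat diet for 15 weeks and then the 10% fat diet for 28 weeks. RNA depleted of ribosomal RNA was sequenced from epithelium released with EDTA from the entire colon, so all crypt levels and colon segments are mixed. The samples carry a batch label, with 4 samples from LF, 3 from HF and 4 from HF-LF mice in batch 1 and 4, 3 and 5 in batch 2. What sets the batches apart is not given. Nothing in the labels ties a sample to an animal, and the methods list fewer mice per regimen than there are samples, so the tests measure the spread between samples and a fit over both batches may count a mouse more than once.

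Butyrate is made by bacteria that ferment fiber, and it is the preferred fuel of colonocytes. It crosses the apical membrane with sodium through Slc5a8 or with a proton through Slc16a1 (MCT1), is activated to its CoA ester, and is oxidized in mitochondria or turned into ketone bodies. The remaining transporter, Slc16a3 (MCT4), is best known for exporting lactate, the receptors sense short-chain fatty acids or butyrate and ketone bodies at the cell surface, and Bdh1 and Acat1 interconvert ketone bodies and acetyl-CoA.

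Library totals over genes ran from 29189922 to 65320947, and 3 counts correspond to 0.0459 to 0.103 CPM (counts scaled to the size and composition of the library). Epithelial markers (6 of 6 found) summed to between 11340 and 15213 CPM in all samples, while the T cell markers (4 of 5 found) summed to between 1.80 and 5.57 CPM, so the labelled tissue was borne out by its markers. HF replicate 3 of batch 1 stood apart from the other samples of its batch, at 61.9 on a first principal component on which the others lay between -26.3 and 14.2. HF replicate 2 of batch 2 was also at the end of its component, at 41.0 against -26.1 to 18.3. Calls that changed without either sample are given with and without it.

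The loci are given on mm10. Slc5a8 is on chr10:88885992-88929515, Slc16a1 on chr3:104638664-104658462, Slc16a3 on chr11:120948484-120959000, Acsm3 on chr7:119760923-119784896 and Bdh1 on chr16:31422297-31458901, all on the plus strand. The minus strand holds Hcar2 on chr5:123863570-123865516, Acat1 on chr9:53580522-53610350, Ffar2 on chr7:30818357-30823775 and Ffar3 on chr7:30854330-30856178, the last a neighbor of Ffar2 at a distance of 30554 bases. The last 1071 bases of the Acsm3 locus overlap Eri2, a gene on the opposite strand. Whether the counting used strand is not stated, so reads in the shared bases may have been counted for either gene or for neither. Eri2 had at most 632 counts in a sample and Acsm3 at least 4539. How many reads the overlap affected was not tested.

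Promoters are shown for Slc16a3 and Acsm3, which were called in a diet comparison, and for Slc16a1, of the same family as Slc16a3. RefSeq (GRCm38.p6, the assembly of mm10) gave the 250 bases before an annotated start of 7 members, and none for Hcar2 or Acat1. Capitals mark the letters CACGTG, the E-box that MYC and related factors read, and ACGTG, the core of hypoxia response elements, which every E-box also contains. Both strands were searched.
Slc16a1, chr3:104638414-104638663, plus strand: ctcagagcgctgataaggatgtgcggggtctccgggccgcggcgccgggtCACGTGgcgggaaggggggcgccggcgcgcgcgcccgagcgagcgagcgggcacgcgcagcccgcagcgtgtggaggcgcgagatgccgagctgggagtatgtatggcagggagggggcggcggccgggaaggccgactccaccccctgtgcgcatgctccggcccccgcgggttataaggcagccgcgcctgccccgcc
Slc16a3, chr11:120948817-120949052, plus strand: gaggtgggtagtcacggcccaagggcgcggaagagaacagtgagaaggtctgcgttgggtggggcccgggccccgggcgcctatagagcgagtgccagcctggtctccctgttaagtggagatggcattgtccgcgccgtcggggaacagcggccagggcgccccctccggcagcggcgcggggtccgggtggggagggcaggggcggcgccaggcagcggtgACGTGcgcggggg
Acsm3, chr7:119760673-119760922, plus strand: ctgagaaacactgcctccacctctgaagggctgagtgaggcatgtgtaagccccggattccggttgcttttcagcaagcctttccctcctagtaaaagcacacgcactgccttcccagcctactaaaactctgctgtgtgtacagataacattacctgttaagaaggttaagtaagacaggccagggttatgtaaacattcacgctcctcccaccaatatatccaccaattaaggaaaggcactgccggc

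The Slc16a1 stretch held the E-box, with its first base 200 bases before the start. Among 32851 mouse promoter stretches of the same length, 6.02% held it. The Slc16a3 window lies inside the counted locus, which begins at base 120948484, so it precedes a start within the locus. It held ACGTG at 27 and at 14 bases before that start. Of all promoter stretches, 1.95% held 2 or more copies that do not overlap, against 16.6% with any. The last 14 bases of the Slc16a3 window, which hold the second copy, are exonic in another annotated transcript and are not printed. The Acsm3 stretch held neither, nor did those of Slc5a8, Ffar3 or Bdh1, while the first of 4 Ffar2 entries held an E-box 102 bases before its start. The letters AGGTCA repeated after a single base, which PPAR receptors bind, were in none of the members' stretches searched and in 0.0335% of all. These matches describe letters, not bound sites.

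On the scale of CPM per kilobase of exon, which allows levels of different genes to be compared, the members fell into 2 tiers. Slc16a1 led with a median of 127 over the 23 samples (104.8 to 159), followed by Slc5a8 at 100.4 (84.5 to 119), Acat1 at 47.2 (35.3 to 68.2), Acsm3 at 45.0 (31.6 to 80.0) and Bdh1 at 35.3 (30.3 to 42.5). Neighbors in that order overlapped over the samples except for Slc5a8 and Acat1. The other 4 were lower, with Ffar2 at 5.86 (2.94 to 8.21), Slc16a3 at 1.29 (0.322 to 2.86), Ffar3 at 0.597 (0.190 to 0.900) and Hcar2 at 0.142 (0.0469 to 0.265). Bdh1 and Ffar2 did not overlap, nor did Ffar2 and Slc16a3, while the last 3 genes overlapped with their neighbors. Hcar2 rested on 3 to 20 counts per sample, Ffar3 on 13 to 90 and Slc16a3 on 76 to 730.

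**Figure D1:**
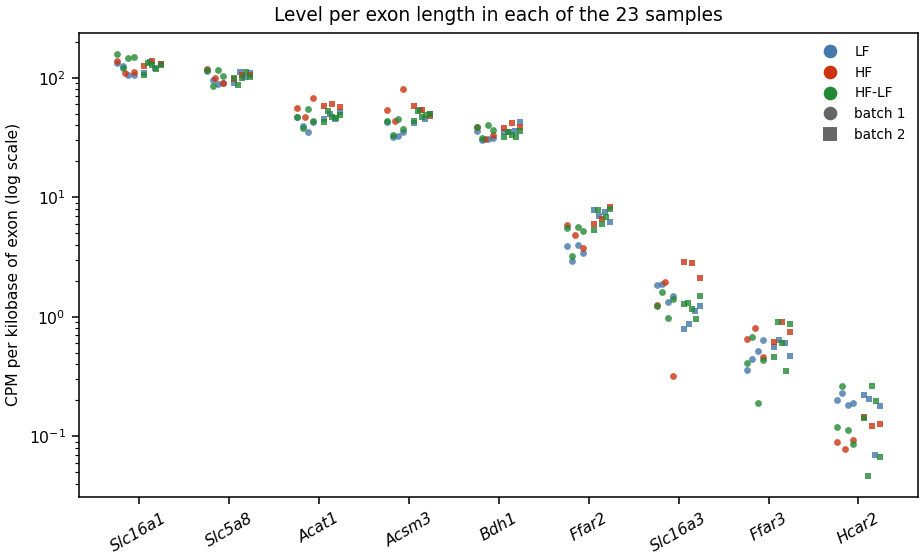
Level of each member in CPM per kilobase of exon (log axis), 1 point for each of the 23 samples, colored by diet, circles for batch 1 and squares for batch 2. Slc16a1 lay between 104.8 and 159 and Hcar2 between 0.0469 and 0.265.

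A gene was called changed at a Benjamini-Hochberg adjusted p under 0.05 over all genes tested (edgeR quasi-likelihood test) and a fold change above 1.2. In batch 1, 0 of the 9 members were called between HF and LF mice, and so were 0% of the 14428 genes tested. At an unadjusted p under 0.05 there were 3 members and 22.2% of genes, DESeq2 called 1 member and 3.55% of genes, and limma voom with sample weights called 4 members and 16.8% of genes. The 3 and the 4 include Hcar2, which passed the filter on low counts in this batch only through its LF samples. From HF to HF-LF mice of batch 1, 0 members and 0.00693% of genes were called, with 1 member and 10.9% of genes at an unadjusted p under 0.05. In batch 2, 2 of 9 members rose from LF to HF mice, Slc16a3 and Acat1, against 7.44% of 14377 genes called in either direction and 3.03% called higher. Both fell again from HF to HF-LF mice, where 14.5% of genes were called and 5.61% were called lower. Over both batches, with batch as a covariate, Acsm3 and Acat1 rose in HF mice (18.1% of 14385 genes called, 9% higher), and both fell in HF-LF mice (10.3% called, 4.9% lower). Between HF-LF and LF mice, 0 of 9 members were called in either batch or in both, with edgeR, DESeq2 or limma voom, where edgeR called 0% of genes in batch 1, 0.00696% in batch 2 and 0% over both, DESeq2 0.0416%, 0.111% and 0.0417%, and limma voom 0%, 0% and 0.0209%. At an unadjusted p under 0.05 there were 2 members in batch 1 (5.29% of genes), 0 in batch 2 (4.65%) and 0 over both (4.11%). The HF and HF-LF contrasts share their HF samples and are not independent of each other. In whole epithelium, more cells of a type and more RNA per cell cannot be told apart, and this holds for every difference below.

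**Figure D2:**
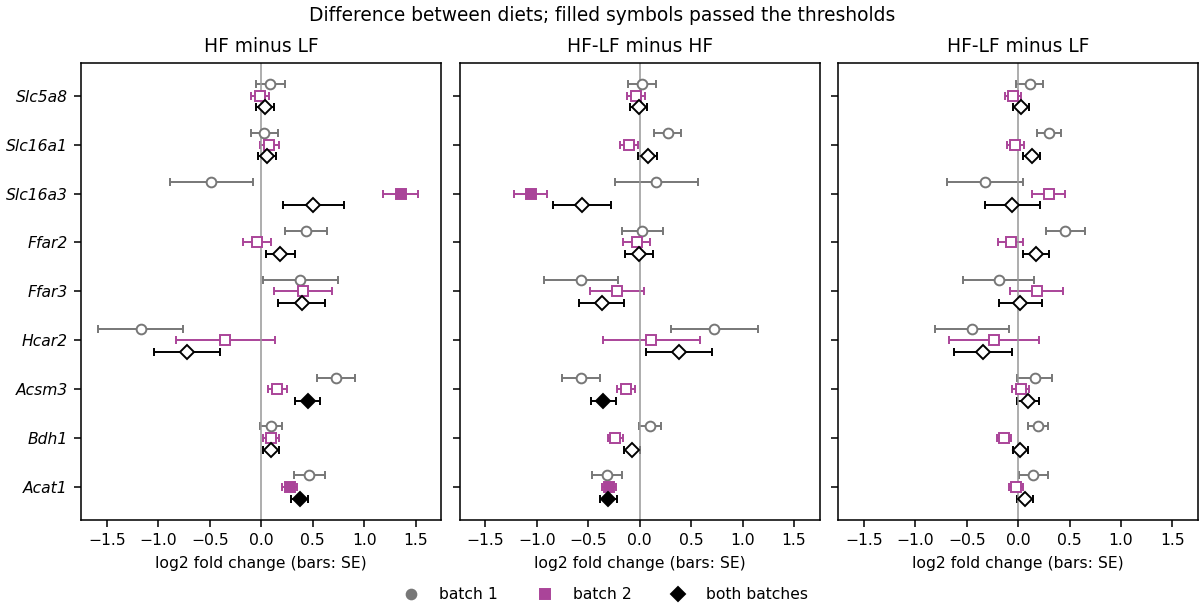
Log2 fold change of each member with its SE for the contrasts of HF with LF, HF-LF with HF and HF-LF with LF mice, in batch 1 (circles), batch 2 (squares) and both batches (diamonds). Filled symbols passed both thresholds, which were Slc16a3 and Acat1 in batch 2 and Acsm3 and Acat1 over both batches, and no symbol is filled for HF-LF against LF.

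Slc16a3, the lactate exporter, showed the largest diet difference of the 9 members, and it did so in batch 2. Its level was 4.16, 4.66, 5.98 and 6.59 CPM in the LF samples of batch 2 and 15.2, 14.9 and 11.2 CPM in the HF samples. The groups did not overlap, as was the case for 27.3% of genes in this contrast. The fold change was 2.56 (log2 1.36, SE 0.17, adjusted p = 0.00224), and the call held whichever of the 12 samples was left out (log2 1.26 to 1.49). In HF-LF mice the level was 6.78, 6.88, 6.22, 5.05 and 7.95 CPM, below every HF sample and within or just above the LF range. From HF to HF-LF mice Slc16a3 fell by 1.06 on the log2 scale (SE 0.16, adjusted p = 0.00703), a call that ended without HF replicate 2 (-1.01, adjusted p = 0.0550).

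Batch 1 did not show this rise. There Slc16a3 was at 9.87, 10.0, 7.02 and 7.93 CPM in LF mice and at 6.64, 10.4 and 1.71 CPM in HF mice, with the lowest value of all 23 samples in HF replicate 3. The log2 difference was -0.49 (SE 0.40, adjusted p = 0.469), and it was -0.03 without that replicate (adjusted p = 0.962). HF-LF mice of batch 1 had 6.56, 8.50, 5.21 and 7.47 CPM. The difference between the batches in the HF against LF contrast was 1.87 (log2, SE 0.46), and its adjusted p over 14725 genes was 0.686, with 0 genes passing in all. It was 1.38 without HF replicate 3 of batch 1. Over both batches the contrast was 0.51 (adjusted p = 0.191), and it passed without that replicate (0.79, adjusted p = 0.0192, where 11% of all genes were called), as did the fall in HF-LF mice (-0.83, adjusted p = 0.0309, 3.47% of genes). In batch 2 the enteroendocrine markers (6 of 6 found, none at 0 throughout) also stood higher in HF mice, with summed levels of 396 to 407 CPM against 270 to 366 in LF and 270 to 359 in HF-LF mice. The 4 small intestine markers summed to 88.9 to 208 CPM in HF, 54.8 to 93.7 in LF and 61.0 to 74.5 in HF-LF mice. Other lists of batch 2 were lower in HF mice, with no overlap with LF mice. Stem cell markers summed to 332 to 354 CPM in HF, 384 to 436 in LF and 343 to 425 in HF-LF mice, T cell markers to 1.80 to 2.42, 2.47 to 3.18 and 2.88 to 4.04 CPM, and smooth muscle markers to 0.702 to 4.20, 5.33 to 28.4 and 1.66 to 14.1 CPM. The part of these cells in the Slc16a3 result was not tested.

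The main butyrate transporters stayed within the spread of the samples. Slc5a8 lay between 451 and 635 CPM in all 23 samples, and its largest diet contrast within a batch was a log2 difference of 0.11 (SE 0.13, HF-LF against LF, batch 1). Its adjusted p was at least 0.711 in every contrast within a batch. Slc16a1 lay between 464 and 704 CPM. HF-LF mice of batch 1 had 704, 529, 650 and 661 CPM of Slc16a1 against 586, 550, 470 and 464 in LF mice, groups that overlapped (log2 0.30, SE 0.12, adjusted p = 0.792). In batch 2 the same contrast was -0.03 (SE 0.08).

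**Figure D3:**
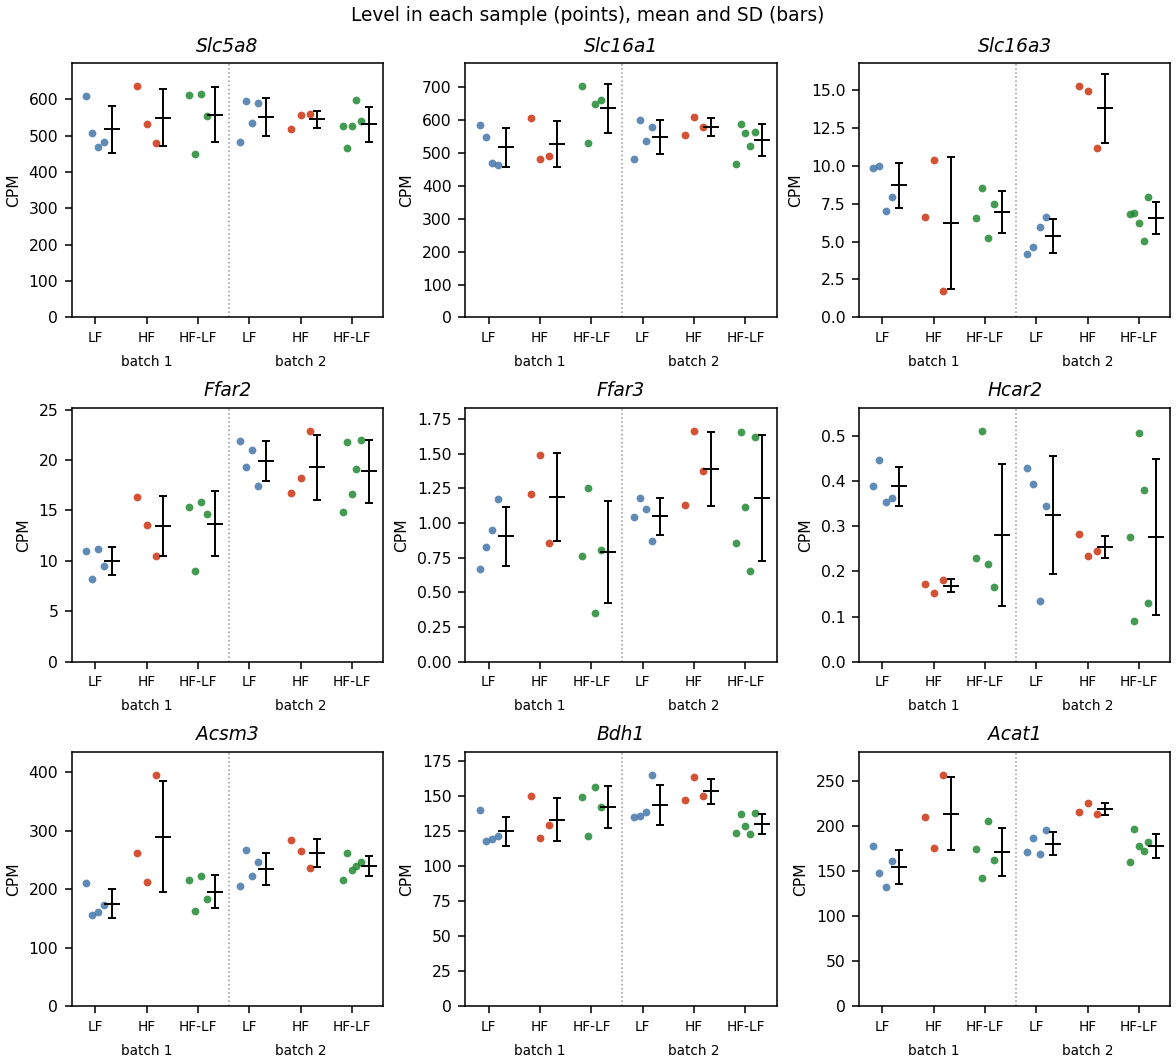
CPM of each member in every sample (points, colored by diet) with the mean and SD of each group (bars), batch 1 left and batch 2 right of the dotted line, each axis starting at 0. In batch 2 the HF samples of Slc16a3 (11.2 to 15.2 CPM) and of Acat1 (213 to 226 CPM) lie above all LF and HF-LF samples.

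The receptors were scarce, and with edgeR and all samples none was called between diets, while limma voom with sample weights called Ffar2 (log2 0.69, adjusted p = 0.0240) and Hcar2 (-1.18, adjusted p = 0.0292) between HF and LF mice of batch 1. Hcar2 passed the filter on low counts in that batch only through its LF samples, the higher group, so its call is not taken as support for a difference. Ffar2, the most abundant, was at 10.98, 8.21, 11.1 and 9.46 CPM in LF mice of batch 1 and at 16.3, 13.5 and 10.5 CPM in HF mice (log2 0.43, SE 0.20, adjusted p = 0.226). In batch 2 the contrast was -0.04 (SE 0.14), with LF samples between 17.4 and 21.9 CPM and HF samples between 16.7 and 22.9. With edgeR and all samples, Ffar2 was the only member called between the LF groups of the batches, as it was 1.95-fold higher in LF mice of batch 2 than of batch 1 (log2 0.96, SE 0.17, adjusted p = 0.000474), in a comparison that called 19.1% of genes and 9.65% as higher. Acsm3 was called there as well without a filter on low counts (log2 0.41, adjusted p = 0.0499, 13.5% of genes called) and with DESeq2 (0.39, adjusted p = 0.0359, 20.5% of genes). Without HF replicate 3 of batch 1, which enters the shared estimate of spread, Slc16a3 (-0.72, adjusted p = 0.00730) and Acsm3 (0.40, adjusted p = 0.0134) were called too, among 21.3% of genes. Leaving out single samples called Acsm3 in 5 of 23 cases and Slc16a3 in 2 of 23. Ffar3, whose levels ran from 0.351 to 1.66 CPM, had HF against LF differences of 0.38 (SE 0.36) in batch 1 and 0.40 (SE 0.28) in batch 2, neither past the threshold (adjusted p = 0.528 and 0.323).

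Hcar2, the receptor for butyrate and the ketone body 3-hydroxybutyrate, had its LF and HF groups apart in batch 1. LF samples were at 0.388, 0.447, 0.353 and 0.363 CPM, from 13 or 14 counts each, and HF samples at 0.173, 0.152 and 0.180 CPM, from 5 to 8 counts. The groups did not overlap, which 13.6% of genes also showed, and the log2 difference of -1.17 (SE 0.41) had an adjusted p of 0.168. In batch 1 the gene passed the filter on low counts only through these LF samples, so the gap between the groups is a description and not support for a difference. In batch 2 the LF samples ranged from 0.135 to 0.428 CPM around the HF samples at 0.234 to 0.282 (log2 -0.35, SE 0.48, adjusted p = 0.632). Over both batches the difference was -0.72 (SE 0.32, adjusted p = 0.0916), and it passed without LF replicate 3 of batch 2 (-0.85, adjusted p = 0.0471). HF-LF samples spread from 0.0905 to 0.511 CPM, across the values of both other diets.

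Acsm3, which joins medium-chain fatty acids and butyrate to CoA, was higher in HF than in LF mice over both batches. In batch 1 it was at 210, 156, 161 and 174 CPM in LF mice and at 263, 212 and 395 CPM in HF mice, groups that did not overlap, like those of 13.6% of genes (log2 0.73, SE 0.19, adjusted p = 0.142). The highest value, 395 CPM, belonged to HF replicate 3, without which the difference was 0.45 (adjusted p = 0.548), whereas without HF replicate 2 it was 0.91 and passed (adjusted p = 0.0324). In batch 2 the LF samples, at 205, 267, 222 and 247 CPM, overlapped with the HF samples at 283, 265 and 237 CPM (log2 0.15, SE 0.09, adjusted p = 0.255). The difference between the batches in this contrast was -0.56 (log2, SE 0.22, adjusted p = 0.740).

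Over both batches Acsm3 rose by 0.45 (log2, SE 0.12, adjusted p = 0.0119), and by 0.30 without HF replicate 3 of batch 1 (adjusted p = 0.0341). It stayed called with any of the 23 samples left out. HF-LF mice had 216, 162, 222 and 183 CPM in batch 1 and between 215 and 261 CPM in batch 2. The fall from HF to HF-LF mice over both batches was -0.35 (SE 0.12, adjusted p = 0.0441), and it lost its call in 8 of 23 cases when a sample was left out. These were HF replicates 1 and 3 and HF-LF replicates 2 and 4 of batch 1, and HF replicates 1 and 2 and HF-LF replicates 1 and 4 of batch 2 (-0.41 to -0.21, adjusted p = 0.0523 to 0.136). In HF replicate 3 of batch 1 the cycling markers (5 of 5 found) summed to 611 CPM, against 361 and 420 in the other HF samples and 252 to 424 in LF mice. Its smooth muscle markers (5 of 5 found) summed to 0.383 CPM, against 1.11 to 9.68 in LF mice. The same sample lay below all LF samples of the batch for stem cell (241 against 313 to 385 CPM), goblet (18336 against 23916 to 33168), fibroblast (2.86 against 15.4 to 26.8) and endothelium markers (1.65 against 6.08 to 8.54), and above them for surface colonocyte markers (14512 against 8828 to 11292). Tuft, B cell, myeloid and glia and neuron markers were below all LF samples too, and small intestine and neutrophil markers above them. HF replicate 1 of batch 1 was also above all LF samples for surface colonocyte markers (12158 CPM), and for epithelium, enteroendocrine and neutrophil markers. It was below them for tuft, endothelium and glia and neuron markers. HF replicate 2 was above all LF samples for enteroendocrine, small intestine, fibroblast and glia and neuron markers. It was below them for surface colonocyte, T cell, B cell and neutrophil markers. The part of these cells in the Acsm3 level was not tested.

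**Figure D4:**
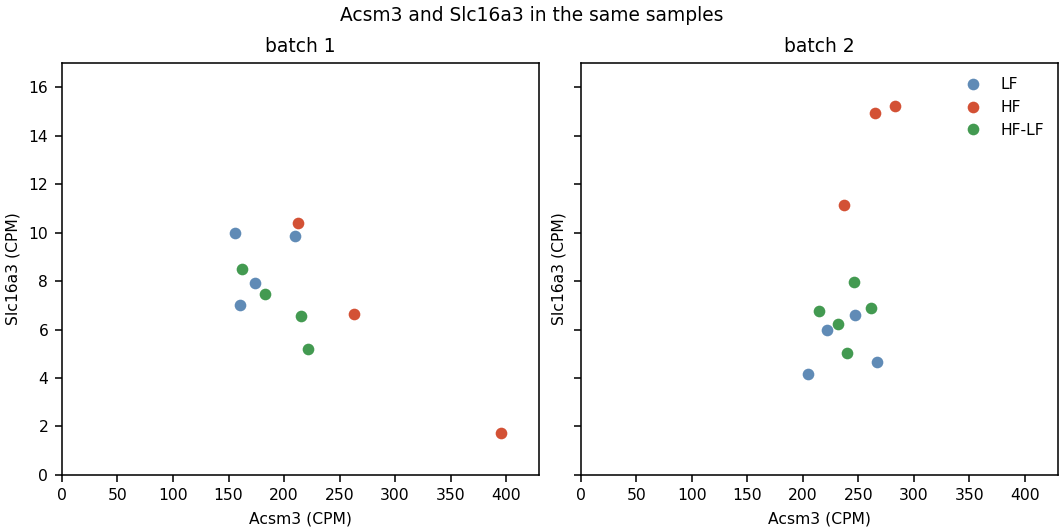
CPM of Acsm3 (horizontal) and Slc16a3 (vertical) in the same samples, colored by diet, with batch 1 left and batch 2 right on shared axes. The HF sample at 395 CPM of Acsm3 and 1.71 CPM of Slc16a3 in batch 1 is replicate 3, while the 3 HF samples of batch 2 have between 11.2 and 15.2 CPM of Slc16a3.

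Acat1, the mitochondrial thiolase that splits acetoacetyl-CoA into acetyl-CoA, was higher in HF mice in batch 2 and over both batches. Its level in batch 2 was 171, 186, 169 and 195 CPM in LF mice, 216, 226 and 213 CPM in HF mice and 160, 196, 178, 172 and 182 CPM in HF-LF mice. Every HF sample was above every LF and HF-LF sample of that batch, and 27.3% of genes had HF and LF groups, and 27% HF and HF-LF groups, that did not overlap. The enteroendocrine, small intestine, stem, T cell and smooth muscle sums given for Slc16a3 come from the same samples, and their part in the Acat1 result was not tested. Acat1 rose by 0.28 (log2, SE 0.07, a fold of 1.21, adjusted p = 0.0386) and fell by 0.30 from HF to HF-LF mice (SE 0.07, adjusted p = 0.0181). The fold lay just above the threshold, and the rise lost its call without any of the 3 HF samples, LF replicates 1, 2 or 3 or HF-LF replicate 5 (0.24 to 0.29, adjusted p = 0.0528 to 0.207). The fall lost its call without HF replicate 2 (-0.29, adjusted p = 0.116) and without HF-LF replicate 1, where it came to less than the fold threshold (-0.26, adjusted p = 0.0400).

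In batch 1 Acat1 was at 177, 148, 133 and 161 CPM in LF mice and at 209.7, 175 and 256 CPM in HF mice, groups that overlapped (log2 0.47, SE 0.15, adjusted p = 0.162). It passed there without HF replicate 2 (0.59, adjusted p = 0.0409). HF-LF mice of batch 1 had 175, 142, 206 and 162 CPM. The highest Acat1 value of batch 1, 256 CPM, belonged to HF replicate 3, which was also highest for Acsm3. Acat1 and Acsm3 correlated at 0.955 over the samples of batch 1 and at 0.749 over those of batch 2. The part of the cells whose marker sums are given for Acsm3 in the Acat1 level was not tested. Over both batches Acat1 rose by 0.37 (SE 0.09, a fold of 1.29, adjusted p = 0.00642), and the call held with any of the 23 samples left out (0.32 to 0.42). It fell by 0.31 from HF to HF-LF mice (SE 0.08, adjusted p = 0.0211), which ended without HF replicate 3 of batch 1 (-0.25, adjusted p = 0.0606). The difference between the batches was -0.17 (SE 0.17, adjusted p = 0.924) for HF against LF and 0.00 on the log2 scale at 2 decimals, with an SE of 0.17, for HF-LF against HF.

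Bdh1, which interconverts acetoacetate and 3-hydroxybutyrate, was flat between HF and LF mice, with log2 differences of 0.09 (SE 0.11) in batch 1 and 0.10 (SE 0.08) in batch 2. In batch 2 it was at 147, 164 and 150 CPM in HF mice and at 124, 137, 129, 123 and 138 CPM in HF-LF mice, groups that did not overlap, like 27% of genes in this contrast. The difference of -0.24 (SE 0.07, adjusted p = 0.0371) came to less than the fold threshold. It passed with replicate number as a block (-0.28, adjusted p = 0.0208) and without HF replicate 1, HF-LF replicate 2 or HF-LF replicate 5 (-0.27 each, adjusted p = 0.0246 to 0.0492). In batch 1 it went the other way, with 150, 120 and 129 CPM in HF mice and 150, 122, 156 and 142 CPM in HF-LF mice (log2 0.10, SE 0.11, adjusted p = 0.723). The difference between the batches, -0.36 (SE 0.13), had an adjusted p of 0.644.

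None of the 9 members passed in the test of a batch difference, for any of the 3 contrasts, and 0 of 14725 genes did. With DESeq2 0 members passed either. At an unadjusted p under 0.05 there were 2 members for HF against LF (6.5% of genes), 3 for HF-LF against HF (7.69%) and 3 for HF-LF against LF (7.63%). Levels and differences in the batches are therefore given side by side. The median log2 difference of the members from LF to HF mice was 0.09 in batch 1 and 0.10 in batch 2, with medians over all genes of 0.00 and -0.01.

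A list of 40 further genes of butyrate transport, sensing, activation, oxidation and ketone bodies was read in the same fits. From LF to HF mice 0 of 29 tested were called in batch 1 (0% of all genes) and 0 of 31 in batch 2 (7.44%). Over both batches 1 of 30 was called (18.1% of all genes), the efflux transporter Abcg2. It rose by 0.31 (log2, SE 0.10, adjusted p = 0.0328). Abcg2 had 113 to 134 CPM in LF and 117 to 198 CPM in HF mice of batch 1, and 84.7 to 107 against 108 to 125 CPM in batch 2. The median of the list was 0.15 in batch 1 and 0.03 in batch 2. From HF to HF-LF mice 1 of 31 was called in batch 2 (14.5% of all genes), the lactate receptor Hcar1. It fell by 1.05 (SE 0.35, adjusted p = 0.0498). Hcar1 rested on 20, 21 and 26 counts in HF mice and 5 to 15 in HF-LF mice. It did not pass the filter on low counts in batch 1 and was not tested there, and its HF and LF groups of batch 2 overlapped. Between HF-LF and LF mice none of the list was called in batch 1 (0% of all genes) or batch 2 (0.00696%). When a sample was left out, the list had 0 to 5 calls over both batches from LF to HF mice and 0 to 5 in batch 2 from HF to HF-LF mice. The shares of all genes called in most of those fits are not reported here.

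Other named genes of the list were not called between diets. Oxct1, which allows ketone bodies to be burned, differed between HF and LF mice by -0.06 (SE 0.14) in batch 1 and by 0.06 (SE 0.09) in batch 2. Acads, the short-chain acyl-CoA dehydrogenase that oxidizes butyryl-CoA, differed by 0.08 (SE 0.12) and -0.02 (SE 0.07). The acetyl-CoA synthetases Acss1 and Acss2 differed by -0.02 (SE 0.09) and -0.06 (SE 0.12) in batch 1 and by -0.11 (SE 0.05) and -0.10 (SE 0.05) in batch 2. Bsg, the chaperone that carries Slc16a1 and Slc16a3 to the membrane, had a difference of 0.22 (SE 0.13, adjusted p = 0.308) in batch 1 and 0.27 (SE 0.11, adjusted p = 0.112) in batch 2. It went from 643 to 785 CPM in HF to 484 to 674 CPM in HF-LF mice of batch 2 (log2 -0.31, SE 0.10, adjusted p = 0.05003).

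The genes most like each member were ranked among 14179 by the lower of the Pearson correlations of log2 CPM over the 11 samples of batch 1 and the 12 of batch 2. These are descriptions, since samples of a batch share diets and a batch label. For Slc16a3 the first were Ik (0.868, the lower of both) and Egln3 (0.837). Acat1 had the closest companions, Atp5f1 (0.973) and Mrpl45 (0.972), followed by Acsm3 with Sept10 (0.897) and Cul5 (0.896), Bdh1 with Panx1 (0.894) and Gstp1 (0.883) and Slc16a1 with Pttg1ip (0.881) and Gpd1l (0.858). Ffar2 came with Spg20 (0.796) and Ptplad2 (0.790), and Slc5a8 with Tceanc (0.737) and A130010J15Rik (0.735). For the sparse genes Hcar2 and Ffar3 the highest values were 0.756 and 0.658.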

How the data were processed

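The authors deposited raw counts per gene locus for 23 samples. By the submitters' processing notes and the study's methods, stranded libraries were trimmed with cutadapt 1.2.1, mapped to mm10 with STAR 2.5 and counted with featureCounts 1.5.0-p1. Counts were fitted here with edgeR 4.0.16 (TMM scaling, filterByExpr, quasi-likelihood test) in R 4.3.3, separately for batch 1, batch 2 and both batches with batch as a covariate, and batch differences as a diet by batch interaction. Adjusted p values cover all genes tested. CPM use TMM-scaled totals of the batch, without a block for replicate numbers, and exon lengths come from GENCODE vM21. DESeq2 1.42.0 and limma 3.58.1 served as alternatives. Floors of 3 counts cover counting error only, since reads carry no molecular identifiers. The fit was tested on simulated data, where it recovered 35% of 1.5-fold and 65% of 2-fold changes in batch 1 and 65% and 87% in batch 2 (HF against LF, 14304 and 14254 genes). For each fold 100 genes were changed, counts were drawn independently around a common mean, and no sample stood apart. Recovery in the real samples may therefore differ, also in batch 1 with its outlying HF replicate 3. All members were named; of the list of 40 genes, those called (at most 8) and 7 fixed genes, some of which are not reported here. Members, list and tests were chosen with earlier results of these data known.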

Additional observations from a re-analysis of the deposited data

Results flagged for a closer look

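Bdh1 in LF replicate 4 of batch 2 was at 165 CPM, far above the other LF samples of its batch at 135 to 138 CPM. Its gap to the nearest sample took a share of 0.892 of the group's range, past Dixon's limit for 4 samples. This was the only such sample among the 36 groups of LF or HF-LF samples tested over the members, and chance alone gives about 1 in 20. HF groups, with 3 samples each, were not tested in this way.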

How the results depend on the processing

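Of 2583 alternatives for 117 values of the members, 2426 kept direction and side of the threshold, 24 passed newly, 20 no longer passed and 113 turned direction. Those 113 belonged to 32 values, of which 0 were called. From LF to HF mice of batch 1, DESeq2 called 1 member (3.55% of genes). There limma voom with sample weights called 4 (16.8% of genes), which were Ffar2, Hcar2, Acsm3 and Acat1. Hcar2 was tested in that batch only because its LF samples passed the filter on low counts. Over both batches voom called 1 member and 10.5% of genes from HF to HF-LF mice, as Acsm3 no longer passed (-0.20, adjusted p = 0.143). Between the LF groups of the batches 2 members were called without a filter (13.5% of genes) and 2 with DESeq2 (20.5%). For the list of 40 genes the calls from LF to HF mice of batch 1 were 1 with DESeq2 (3.55% of genes) and 2 with voom (16.8%). In batch 2 they were 1 each (voom, replicate block, adjusted p alone). Over both batches they were 3 (DESeq2 size factors), 3 (no filter), 4 (DESeq2), 0 (voom), 2 (replicate block) and 5 (adjusted p alone). From HF to HF-LF mice they were 3, 2 and 2 (DESeq2 size factors, no filter, DESeq2), 3 (replicate block) and 4 (adjusted p alone) in batch 2. Over both batches voom called 1 (10.5% of genes). Shares of all genes under the other settings are not reported here, so those counts are not set against them. The causes were not tested.

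With a sample left out, calls among members from LF to HF mice were 0 to 2 in batch 1, 1 to 2 in batch 2 and 2 to 3 over both batches, from HF to HF-LF mice 0 to 3 in batch 2 and 1 to 2 over both, and 1 to 3 between LF groups. Calls of the list were 0 to 1 in batch 1, 0 to 1 in batch 2 and 0 to 5 over both from LF to HF mice, and 0 to 5 in batch 2 and 0 to 2 over both from HF to HF-LF mice. Beyond those given above, shares of all genes in these fits are not reported here. Same-numbered samples correlated between -0.381 and 0.386 in batch 1 and between -0.119 and 0.389 in batch 2 (10 pairs each), so the numbers were not taken to pair samples. With the replicate block Bdh1 passed from HF to HF-LF mice of batch 2 (-0.28, adjusted p = 0.0208).

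Direction turned, as log2 differences, in the following values, none of them called. With limma voom with sample weights, these were Slc5a8 -0.087 (HF-LF against HF, batch 1), Slc5a8 -0.0021 (HF-LF against LF, both batches), Slc16a3 0.11 (HF-LF against LF, both batches), Ffar2 -0.12 (HF-LF against HF, batch 1), Ffar2 0.0086 (HF against LF, batch 2), Hcar2 -0.17 (HF-LF against HF, batch 2), Hcar2 -0.029 (HF-LF against HF, both batches), Bdh1 -0.00052 (HF-LF against LF, both batches). With no filter on low counts, these were Slc5a8 0.00041 (HF against LF, batch 2), Bdh1 -0.0042 (batch difference, HF against LF), Acat1 0.0066 (batch difference, HF-LF against HF). With replicate block, these were Slc5a8 0.034 (HF against LF, batch 2), Ffar2 -0.0051 (HF-LF against HF, batch 1), Ffar3 -0.013 (HF-LF against LF, batch 2), Ffar3 -0.13 (HF-LF against LF, both batches). With DESeq2 size factors (RLE), these were Acat1 7.4e-05 (batch difference, HF-LF against HF). With DESeq2, these were Acat1 4.9e-05 (batch difference, HF-LF against HF). With a sample left out, Slc5a8 ranged over -0.031 to 0.18 (HF against LF, batch 1), -0.072 to 0.15 (HF-LF against HF, batch 1), -0.074 to 0.024 (HF against LF, batch 2), -0.011 to 0.089 (HF against LF, both batches), -0.062 to 0.040 (HF-LF against HF, both batches), -0.21 to 0.0083 (batch difference, HF against LF), -0.19 to 0.021 (batch difference, HF-LF against HF). Slc16a1 ranged over -0.090 to 0.099 (HF against LF, batch 1), -0.085 to 0.021 (HF-LF against LF, batch 2), -0.018 to 0.16 (batch difference, HF against LF). Slc16a3 ranged over -0.30 to 0.73 (HF-LF against HF, batch 1), -0.16 to 0.031 (HF-LF against LF, both batches). Ffar2 ranged over -0.13 to 0.20 (HF-LF against HF, batch 1), -0.19 to 0.054 (HF against LF, batch 2), -0.13 to 0.12 (HF-LF against HF, batch 2), -0.14 to 0.0021 (HF-LF against LF, batch 2), -0.078 to 0.075 (HF-LF against HF, both batches), -0.24 to 0.090 (batch difference, HF-LF against HF). Ffar3 ranged over -0.50 to 0.056 (HF-LF against LF, batch 1), -0.073 to 0.13 (HF-LF against LF, both batches), -0.18 to 0.20 (batch difference, HF against LF). Hcar2 ranged over -0.24 to 0.31 (HF-LF against HF, batch 2), -0.15 to 0.64 (batch difference, HF-LF against LF). Acsm3 ranged over -0.038 to 0.088 (HF-LF against LF, batch 2). Bdh1 ranged over -0.0057 to 0.16 (HF against LF, batch 1), -0.015 to 0.064 (HF-LF against LF, both batches), -0.076 to 0.099 (batch difference, HF against LF). Acat1 ranged over -0.067 to 0.021 (HF-LF against LF, batch 2), -0.14 to 0.13 (batch difference, HF-LF against HF).

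With 3 HF samples a batch, moderate changes can be missed. Hcar2 and Ffar3 rest on few counts, and batch cannot be told apart from what set it.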
